A study of Homo sapiens with 17 samples.

Results

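The data described here are ribosome footprints of HEK293 cells, a human embryonic kidney line, sequenced 36 h after electroporation with an active or an inactive Cas9. The samples were taken by assay, time and nuclease from their labels, which gave 4 of the 17 samples of the series: replicates a and c of Cas9 and replicates d and e of dCas9. All 4 received the nuclease as a ribonucleoprotein with a guide against intron 12 of JAK2, at 300 pmol of nuclease and 300 pmol of guide per the labels. That intron is 2439 bp long and lies at chr9:5070053-5072491 on the plus strand of hg38, inside a gene of 25 exons at chr9:4984390-5129948. Cas9 cuts both DNA strands at the guide's site, whereas dCas9 binds there and does not cut, so the comparison asks what the cut adds to delivery and binding. A replicate was a plate of cells from several pooled electroporations. No sample without electroporation or without guide was analysed here, and Cas9 replicate b has mRNA but no footprints here.

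Ribosome profiling sequences the stretch of mRNA that a translating ribosome shields from nuclease. The number of footprints on a coding region therefore follows both the amount of its mRNA and how often ribosomes are loaded on it. After DNA damage, the p53 pathway alters transcription of genes that arrest the cell cycle. Phosphorylation of the initiation factor eIF2 lowers initiation on most mRNAs and raises it on a few with upstream reading frames, such as ATF4. mRNAs with a terminal oligopyrimidine tract (TOP mRNAs), which encode ribosomal proteins and elongation factors, respond to growth signals through mTOR. Footprint counts are shares of a library, so a change in translation common to all mRNAs leaves no trace in them, and fewer translating cells cannot be told apart from fewer ribosomes per cell.

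With 1 transcript kept per gene, the samples held 957795 counts for Cas9 a, 2514397 for Cas9 c, 4868650 for dCas9 d and 689641 for dCas9 e, a range of 7.06-fold. The nucleases did not separate by depth, since each had a deeper and a shallower sample. The 10 highest genes took 7.53% to 8.48% of the counts. The HEK293 marker list (NEFM, NEFL, VIM, KRT8, KRT18, PAX2, LHX1 and GAL) had footprints for 8 of 8 genes and summed to 2074 to 2652 CPM (counts scaled to a common library size), of which VIM alone gave 1857 to 2300 CPM. PAX2 had 2 counts in a single sample, and KRT8 had none in Cas9 a and dCas9 e. ALB and APOA1 of hepatocytes and PECAM1 and CDH5 of endothelium had no count in any sample, and the 3 of 7 blood and K562 markers that were matched summed to at most 7.56 CPM. The fibroblast markers summed to 10.7 to 16.7 CPM, mostly from COL1A1 with 15, 24, 74 and 7 counts, while DCN had none.

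JAK2, the gene that carries the target site and encodes a tyrosine kinase of cytokine receptors, had almost no footprints. Its counts were 0 for Cas9 a, 10 for Cas9 c, 9 for dCas9 d and 0 for dCas9 e. Both samples at 0 were the shallow ones, and JAK2 was below the minimum for a test, a mean of 20 counts over the 4 samples. The same transcript had 135, 131 and 270 mRNA counts with Cas9 and 140 and 232 with dCas9, so a change in JAK2 translation was not detectable at this depth.

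No gene was called different between Cas9 and dCas9 in footprints at 36 h. Of 9035 genes tested with edgeR's quasi-likelihood test, 0 passed a false discovery rate of 0.1 (0%), and the smallest adjusted p was 0.999. At an unadjusted p under 0.05 stood 179 genes higher with Cas9 (1.98%) and 170 lower (1.88%), and DESeq2 on the same counts called 0 genes, with 107 under 0.05. Both Cas9 samples lay above both dCas9 samples for 15.9% of the genes and below both for 14.6%. The estimates themselves were spread evenly about 0, with 4588 above and 4447 below, a median of 0.01 and a median absolute log2 fold change of 0.23. An estimate over 2-fold was found for 317 genes, 137 higher and 180 lower. The minimum for a test is a mean of raw counts, so a gene with few counts passed more easily when high in dCas9 d, the deepest sample. Under 20 CPM, 1144 estimates of any size were above 0 and 1220 below, while each range above had more above 0. The part of the minimum in these counts was not tested.

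**Figure D1:**
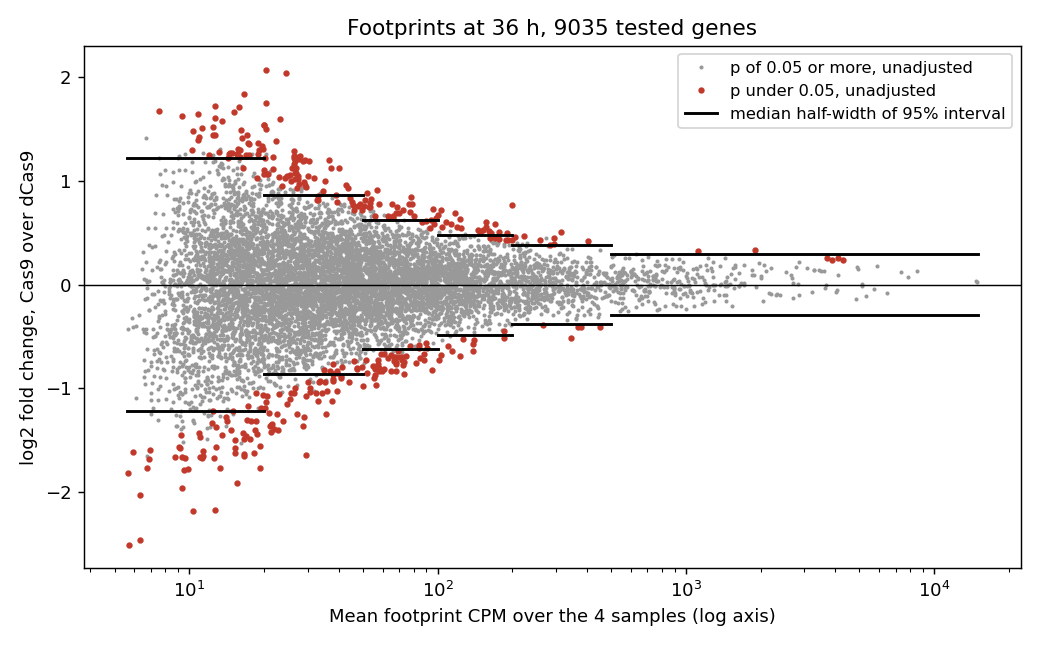
The log2 fold change of footprints, Cas9 over dCas9, is plotted against mean CPM (log axis) for the 9035 tested genes. Red points have an unadjusted p under 0.05, none passed the false discovery rate of 0.1, and black lines mark the median half-width of the 95% interval in 6 ranges of CPM, from 1.22 under 20 CPM to 0.30 above 500 CPM.

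How much this result bounds depends on the level of a gene. Among the 323 genes above 500 CPM, the 95% interval of every gene lay within 2-fold in either direction, and for 97.8% it lay within 1.5-fold. Among the 1757 genes of 50 to 100 CPM, 78.7% had an interval within 2-fold and 2.5% one within 1.5-fold. Below 20 CPM this held for 4 of 2364 genes for 2-fold (0.169%) and for 0 for 1.5-fold. Over all tested genes, 4040 had an interval within 2-fold (44.7%), and for the other genes the interval reached past 2-fold in at least 1 direction. The common biological coefficient of variation was 30.1% here, against 15.7% for mRNA at 36 h and 7.61% for footprints at 72 h.

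Samples of the same nuclease were no closer to each other than samples of different nucleases. The median absolute log2 difference between replicates was 0.39 for Cas9 a and c and 0.45 for dCas9 d and e. Between nucleases it ran from 0.25 for Cas9 c and dCas9 d, the 2 deepest samples, to 0.52 for Cas9 a and dCas9 e, the 2 shallowest. With each sample thinned to 689641 counts, 5386 genes kept the minimum, and the distances were 0.31 and 0.35 between replicates against 0.24 to 0.37 between nucleases. Cas9 c and dCas9 d thus stayed the closest pair at equal depth.

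**Figure D2:**
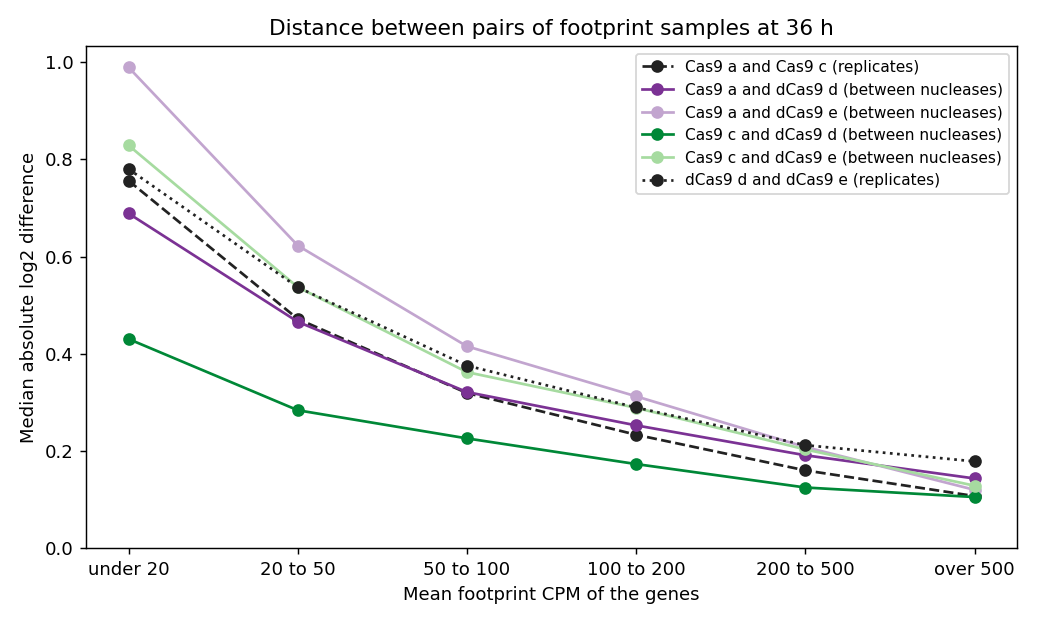
The median absolute log2 difference of CPM between each pair of samples is plotted for genes in 6 ranges of mean CPM. Black lines are the pairs of replicates and coloured lines the pairs of a Cas9 and a dCas9 sample: the replicate lines run among the coloured ones up to 200 CPM, the line of dCas9 d and e is the highest above it, and all fall from between 0.43 and 0.99 under 20 CPM to between 0.11 and 0.18 above 500 CPM.

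The ribosomal protein genes that the study follows were level across the 4 samples. RPS27A, which encodes a ubiquitin fused to a small subunit protein, had 470, 423, 462.1 and 448.4 CPM in Cas9 a, Cas9 c, dCas9 d and dCas9 e. Its log2 fold change was -0.05 ± 0.17 (SE, n = 2 against 2), with a 95% interval of -0.38 to 0.29. The lowest and the highest of these values both came from Cas9 samples. RPS10 had 678.2, 716.7, 760.6 and 695.8 CPM and RPL10A 811.2, 799.7, 811 and 814.3, with log2 fold changes of -0.07 ± 0.15 and -0.01 ± 0.15. RPL22, at 231.8 to 261.9 CPM, gave -0.03 ± 0.19. For all 4 genes the groups overlapped.

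PRKDC, the catalytic subunit of a kinase that acts in non-homologous end joining, had 975.4, 895.2, 1010 and 889.3 CPM in the same order of samples. Its log2 fold change was -0.04 ± 0.14, with an interval of -0.33 to 0.24. MDM2, the ubiquitin ligase that p53 induces and that degrades p53, had 68.7 and 39.9 CPM with Cas9 and 64.9 and 40.5 CPM with dCas9. Each nuclease thus had 1 higher and 1 lower sample, and the log2 fold change was -0.31 ± 0.34.

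EIF2S1 encodes the alpha subunit of eIF2, the target of the stress kinases. It had 110.5 and 94.7 CPM with Cas9 and 138.3 and 162 CPM with dCas9. Both Cas9 samples lay below both dCas9 samples, and the log2 fold change was -0.53 ± 0.25, with an interval of -1.02 to -0.03 and an adjusted p of 0.999. EIF2S1 mRNA gave 0.11 at 36 h and its footprints -0.07 at 72 h, neither of which was called.

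Of the mRNAs known to be translated during the stress response, ATF4 and PPP1R15A are among the genes followed. ATF4, a transcription factor of amino acid metabolism, had 81.6 and 58.4 CPM with Cas9 and 64.3 and 105 CPM with dCas9, a log2 fold change of -0.13 ± 0.31. PPP1R15A, which brings a phosphatase to eIF2, had 9 and 18 counts with Cas9 and 62 and 26 with dCas9, or 9.66, 7.25, 12.5 and 39 CPM. Both dCas9 samples were higher, with dCas9 e apart from the other 3 samples, and the log2 fold change was -1.02 ± 0.69, with an interval of -2.40 to 0.35. DDIT3 had 0, 0, 12 and 0 counts and ATF5 0, 10, 6 and 0, and both stayed below the minimum.

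**Figure D3:**
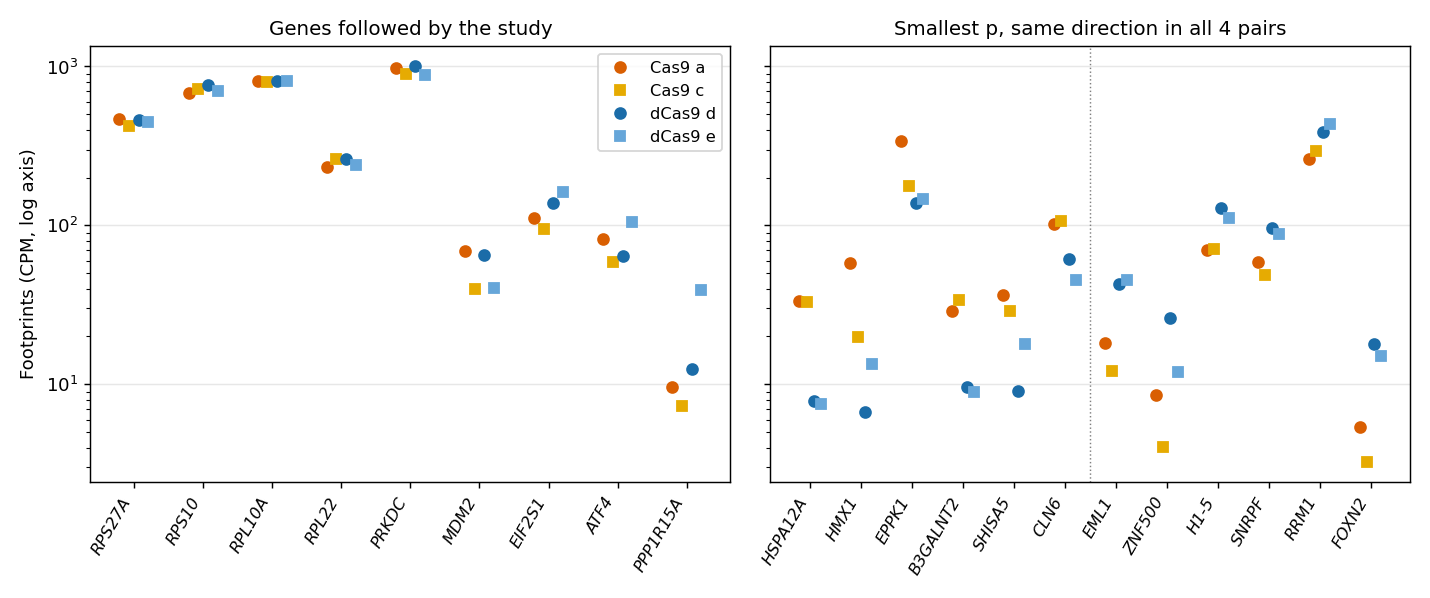
Footprints per gene in CPM (log axis) are plotted for Cas9 a, Cas9 c, dCas9 d and dCas9 e, on the left for genes the study follows and on the right for the 6 genes higher and the 6 lower with Cas9 that had the smallest p. RPL10A sits between 799.7 and 814.3 CPM in all samples, whereas HSPA12A on the right splits into 33.0 and 33.3 against 7.50 and 7.86 CPM.

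The genes with the smallest p in each direction, among those where every Cas9 sample lay on 1 side of every dCas9 sample, are given as values, since none was called. HSPA12A, a distant member of the 70-kDa heat shock protein family, had 31 and 82 counts with Cas9 and 39 and 5 with dCas9. This came to 33.3 and 33.0 CPM against 7.86 and 7.50 CPM, a log2 fold change of 2.07 ± 0.55 with an interval of 0.97 to 3.18. It had the smallest p of all genes, 0.00036 before adjustment in edgeR's test. The replicates of each nuclease lay close together, which a choice by smallest p favours. HSPA12A mRNA gave 0.30 at 36 h and its footprints -0.27 at 72 h, and neither was called. B3GALNT2, a glycosyltransferase of dystroglycan, had 29.0 and 33.8 CPM with Cas9 and 9.68 and 8.998 CPM with dCas9, a log2 fold change of 1.75 ± 0.53. Its mRNA gave -0.01 at 36 h and its footprints 0.02 at 72 h, and neither was called.

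The replicates of the other genes on the higher side were less even. HMX1, a homeobox transcription factor, had 58.0 and 19.7 CPM with Cas9 and 6.65 and 13.5 CPM with dCas9. Its log2 fold change of 2.04 ± 0.59 became 1.36 without Cas9 a, 2.92 without Cas9 c and 1.19 without dCas9 d. EPPK1, which encodes the cytolinker epiplakin, had 338 CPM in Cas9 a alone and 138.1 to 175.7 CPM in the other 3 samples, and its log2 fold change of 0.77 ± 0.23 became 0.31 without Cas9 a and 1.27 without Cas9 c. SHISA5 (1.603 ± 0.54, and 0.78 without dCas9 d) and CLN6, a membrane protein of the endoplasmic reticulum (0.85 ± 0.29), completed the 6.

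On the lower side, EML1, a microtubule-associated protein, had 18.2 and 12.1 CPM with Cas9 and 42.9 and 45.0 CPM with dCas9, a log2 fold change of -1.64 ± 0.49. RRM1, the large subunit of ribonucleotide reductase, was the most deeply covered of these genes. It had 244 and 734 counts with Cas9 and 1921 and 289 with dCas9, or 261.8 and 295.7 against 387.3 and 433.4 CPM. Its log2 fold change was -0.51 ± 0.18, with an interval of -0.87 to -0.15, and it lay between -0.63 and -0.45 when any 1 sample was left out. SNRPF, a core protein of spliceosomal snRNPs, had 59.0 and 48.8 against 96.2 and 88.5 CPM, and the linker histone gene H1-5 had 69.8 and 70.5 against 128.4 and 111 CPM. Their log2 fold changes were -0.86 ± 0.31 and -0.82 ± 0.27. ZNF500 and FOXN2 gave -2.18 ± 0.69 and -2.18 ± 0.77, and ZNF500 gave -1.46 without Cas9 c. ZNF500 had 8 and 10 counts with Cas9 and 130 and 8 with dCas9 d and e. FOXN2 had 5 and 8 with Cas9 and 89 and 10 with dCas9 d and e. Both reached the minimum mean of 20 counts only through dCas9 d, the deepest sample, where they were high.

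Gene groups were described by their counts and medians beside those of all tested genes. In each of the 24 lists, 0 members were called. The count of members whose samples did not overlap is read against 15.9% higher and 14.6% lower over all genes, and the median against 0.01.

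Among the genes of the translation machinery, the small subunit proteins had 1 of 31 members higher without overlap and 6 lower, and a median log2 fold change of -0.01. The large subunit proteins had 2 of 47 higher and 10 lower, with a median of -0.05. Single pairs of samples gave medians of -0.06 to 0.02 and of -0.17 to -0.001 for these lists. All 31 small subunit genes and 46 of 47 large subunit genes had an interval within 2-fold. The large subunit gene with the smallest p was RPL7, at -0.41. RACK1, a scaffold on the small subunit, had 3148, 3124, 3081 and 3518 CPM, and RPS15 had 3596, 3562, 2870 and 3668 CPM. For RPS15 the low sample was dCas9 d. RPL8 and RPL7A, the highest of the large subunit, gave -0.10 ± 0.13 and -0.09 ± 0.13.

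The list of elongation factors and other TOP mRNAs had 0 of 19 members higher and 4 lower without overlap, and a median of -0.09. EEF1A1, which brings tRNAs to the ribosome, had 5065 and 5162 CPM with Cas9 and 5314 and 5749 CPM with dCas9, a log2 fold change of -0.11 ± 0.11. EEF2, the translocation factor, had 6227, 6302, 6088 and 7158 CPM, so that 1 dCas9 sample was lowest and the other highest. Of 35 initiation factors, 3 were higher and 8 lower without overlap, with a median of -0.04. The smallest p among them was that of EIF5B, at -0.64, and the helicase EIF4A1 had -0.10 ± 0.12. The median of 20 aminoacyl-tRNA synthetases was -0.01, and their 2 highest genes, TARS1 and FARSA, gave 0.11 and 0.27.

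Genes of ribosome assembly and quality control also had medians near 0. The 35 ribosome biogenesis factors had a median of 0.04, with 5 members higher and 5 lower without overlap. Nucleolin, NCL, had 941.1 and 1004 CPM with Cas9 and 1059 and 1042 CPM with dCas9. The 18 factors of stalled ribosomes had a median of -0.06, and VCP, the segregase that extracts ubiquitinated proteins, gave -0.16 ± 0.15. The 4 ubiquitin precursor genes had a median of -0.06, with 0 higher and 0 lower without overlap. UBB had 4830, 4378, 4804 and 5324 CPM, and dCas9 e was the highest sample. Of 33 proteasome subunits, 7 were higher and 1 was lower without overlap, at a median of 0.01. All 33 had an interval within 2-fold, and PSMB1 had 556.9, 556.4, 522.7 and 529.4 CPM.

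For the stress pathways, 12 of 19 mRNAs with upstream reading frames reached the minimum. They had a median of 0.003, with 2 members higher and 2 lower without overlap, and only 6 had an interval within 2-fold. The 23 tested ATF4 targets had 7 members higher without overlap (30.4%) and 2 lower (8.70%), with a median of 0.16 and single pairs at 0.003 to 0.18. Their highest genes were SLC1A5, a glutamine transporter (0.03 ± 0.15), and PHGDH of serine synthesis (-0.06 ± 0.15). The unfolded protein response list had 6 of 21 higher and 2 lower, and a median of 0.04. Its 2 highest genes lay on the other side, CALR at -0.01 and HSP90B1 at -0.21. Heat shock and cytosolic chaperones had 0 of 26 higher and 9 lower without overlap (34.6%), with a median of -0.04. HSPA1A and HSPA1B had the most footprints of all genes, 13300 to 16130 and 13130 to 15940 CPM. Their log2 fold changes were 0.02 ± 0.10 and 0.04 ± 0.10, and since their coding regions are nearly identical, reads cannot be divided between them.

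The DNA damage lists showed no call. Among 49 tested genes of double-strand break repair, 6 were higher and 9 lower without overlap, with a median of -0.06. PARP1, which senses strand breaks, had 1490, 1444, 1501 and 1446 CPM, and XRCC6, the Ku70 subunit that binds ends, had 959.3, 992.7, 962.6 and 1017 CPM. Both gave -0.01, with intervals of -0.28 to 0.26 and -0.30 to 0.27. The 25 tested members of the p53 list had a median of -0.12 in the model, whereas 3 of the 4 single pairs had medians above 0 (0.03 to 0.18), so the model and most pairs differed in sign. Of the 25, 6 were higher and 5 lower without overlap. BAX, a target that permeabilises mitochondria, gave 0.17 ± 0.25. The phosphatase gene PPM1D had the smallest p of the list, at -0.85.

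Genes of the cell cycle divided between the lists. The 30 mitotic genes had a median of -0.12, with 3 higher and 6 lower without overlap. TOP2A, the topoisomerase that unlinks sister chromatids, had 489.3 and 560 CPM with Cas9 and 633.2 and 590.8 CPM with dCas9, a log2 fold change of -0.22 ± 0.16. The 31 genes of replication licensing and forks had a median of 0.01. Their highest member, the helicase subunit MCM2, had 1038 and 946.4 against 932.4 and 809.8 CPM and gave 0.16 ± 0.15.

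The replication-dependent histones had 11 of 38 members higher without overlap (28.9%) and 1 lower (2.63%), and a median of 0.13. The single pairs set this median apart by dCas9 sample. Against dCas9 d it was 0.26 and 0.22, and against dCas9 e 0.02 and -0.06. The footprints of the 38 tested list members summed to 57050, 56640, 48950 and 57470 CPM in Cas9 a, Cas9 c, dCas9 d and dCas9 e. In these sums dCas9 d was the low sample and the other 3 were level. H4C14 had 4529, 4736, 4038 and 3786 CPM, a log2 fold change of 0.24 ± 0.12. Without dCas9 e, 5 genes were called, all higher with Cas9, and 4 of them were histones: H2BC21, H2BC18, H3C14 and H3C15, at 0.33 to 0.39. The fifth was ZFHX3, a homeobox factor, with 369.1, 201.4, 115.5 and 409.4 CPM. The 4 histone genes were not among the 38 of the list, so they add nothing to its counts, median or sums. H3C14 had 7936, 7435, 6107 and 8033 CPM in Cas9 a, Cas9 c, dCas9 d and dCas9 e. H3C15 had 9238, 8649, 7115 and 9211 CPM. ZFHX3 and the 4 histone genes were named after their values were seen. Histone genes are near-identical copies, and their reads may be shared among them.

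The trend with GC content differed between pairs of samples. In the quartile of genes with the highest GC content of the coding part (59.1 to 78.4%), the median difference from dCas9 d was 0.25 for Cas9 a and 0.13 for Cas9 c. In the lowest quartile (32.6 to 45.0%) it was -0.25 and -0.11. Against dCas9 e the medians were 0.02 and -0.09 in the highest quartile and 0.04 and 0.19 in the lowest. Histones had a median GC content of 60.5% and ATF4 targets of 58.7%, against 51.9% over all tested genes. Centring every sample within 20 bins of GC content, an alternative added after the values were seen, left 0 genes called. It gave medians of 0.07 for histones, 0.08 for ATF4 targets, 0.05 for immediate early genes (0.14 before) and -0.08 for mitotic genes. The length of the counted coding part had a rank correlation of -0.04 with the log2 fold change across genes, and GC content one of 0.22. For single pairs the correlation with GC content was 0.30 (Cas9 a) and 0.21 (Cas9 c) against dCas9 d. Against dCas9 e it was -0.02 (Cas9 a) and -0.16 (Cas9 c). Genes are not independent replicates, and these values describe the same 4 samples.

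The 13 genes of the mitochondrial genome, translated by mitochondrial ribosomes, separated the samples in another way. Their footprints summed to 1839 CPM in Cas9 a and 2382 CPM in dCas9 e, and to 1146 CPM in Cas9 c and 1185 CPM in dCas9 d. Both shallow samples were thus the high ones, 1 of each nuclease. MT-CO1, a core subunit of cytochrome c oxidase, had 781.2, 432.7, 451.8 and 1005 CPM, and MT-CO2 had 241.4, 151.9, 142.1 and 275.9 CPM. The median log2 fold change of the list was -0.11, but single pairs gave 0.42, -0.41, -0.12 and -0.95. MT-CO1 was the only gene called without dCas9 d, where Cas9 is compared with dCas9 e alone, at -0.80 with an adjusted p of 0.00715 in edgeR's test. The part of depth in this difference was not tested.

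**Figure D4:**
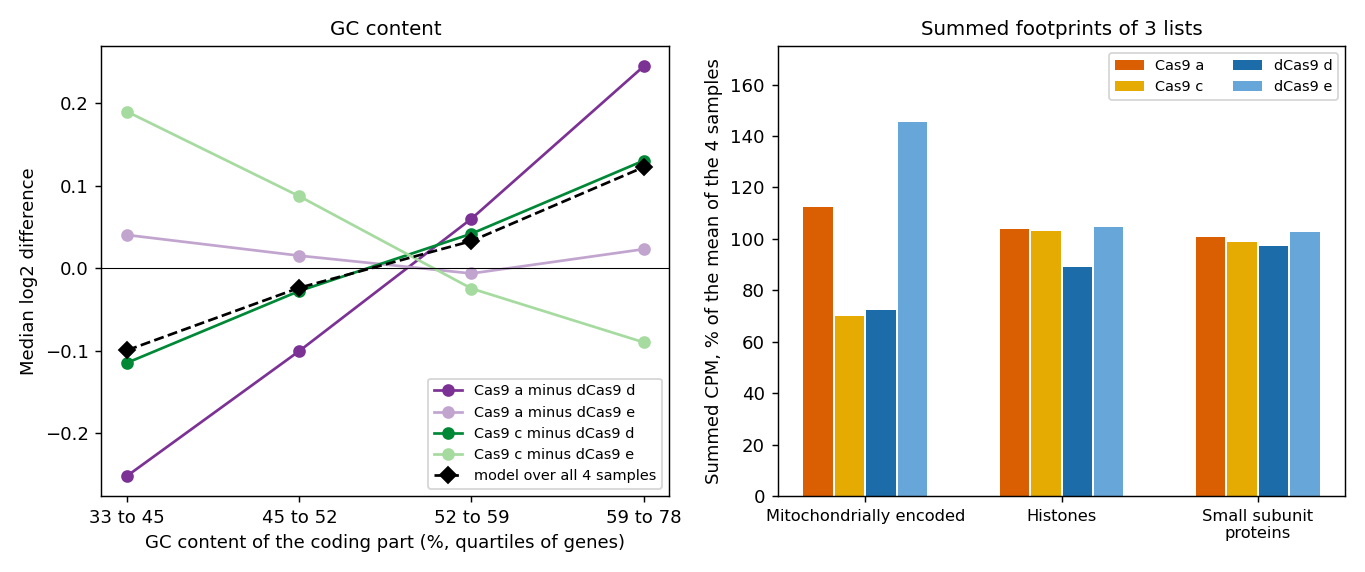
On the left, the median log2 difference of footprints is plotted for quartiles of the tested genes by GC content (%), for each pair of a Cas9 and a dCas9 sample and for the model over all samples. On the right, bars give the summed CPM of 3 lists in each sample as a percentage of the mean of the 4 samples: mitochondrially encoded genes are high in Cas9 a and dCas9 e (1839 and 2382 CPM), histones are low in dCas9 d (48950 CPM), and small subunit proteins lie between 28870 and 30460 CPM.

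The remaining lists held metabolic, immune and early response genes. The 18 glycolysis enzymes had 8 members higher without overlap (44.4%) and 0 lower, at a median of 0.06, with single pairs at 0.02 to 0.12. The sizes were small at the top of the list: GAPDH had 4236 and 4212 against 4012 and 3902 CPM, and ENO1, with 5046, 5155, 4863 and 5453 CPM, overlapped. ALDOC had the smallest p, at 1.02. Sterol synthesis had a median of -0.03 over 24 genes, and FDPS, which makes farnesyl diphosphate, gave 0.37 ± 0.20. Of 27 immediate early genes 16 were tested, with 4 higher and 2 lower without overlap. MYC had 501.1 and 473.8 against 458.6 and 437.9 CPM, and JUN 359.5, 336.8, 281.8 and 370.4 CPM. Of 35 interferon-induced genes and RNA sensors, 28 were matched and only 12 reached the minimum. These 12 had a median of 0.11, with 1 higher and 2 lower without overlap. Single pairs gave medians of 0.39 and 0.58 with Cas9 a, and of -0.02 and -0.20 with Cas9 c. Their footprints summed to 509.7 CPM in Cas9 a, and to 389.6, 396.6 and 388.4 CPM in Cas9 c, dCas9 d and dCas9 e. TRIM25 gave 0.07 ± 0.29, while IFIT2 and OASL had no count in any sample and IFIT3 8 counts in dCas9 d alone.

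**Figure D5:**
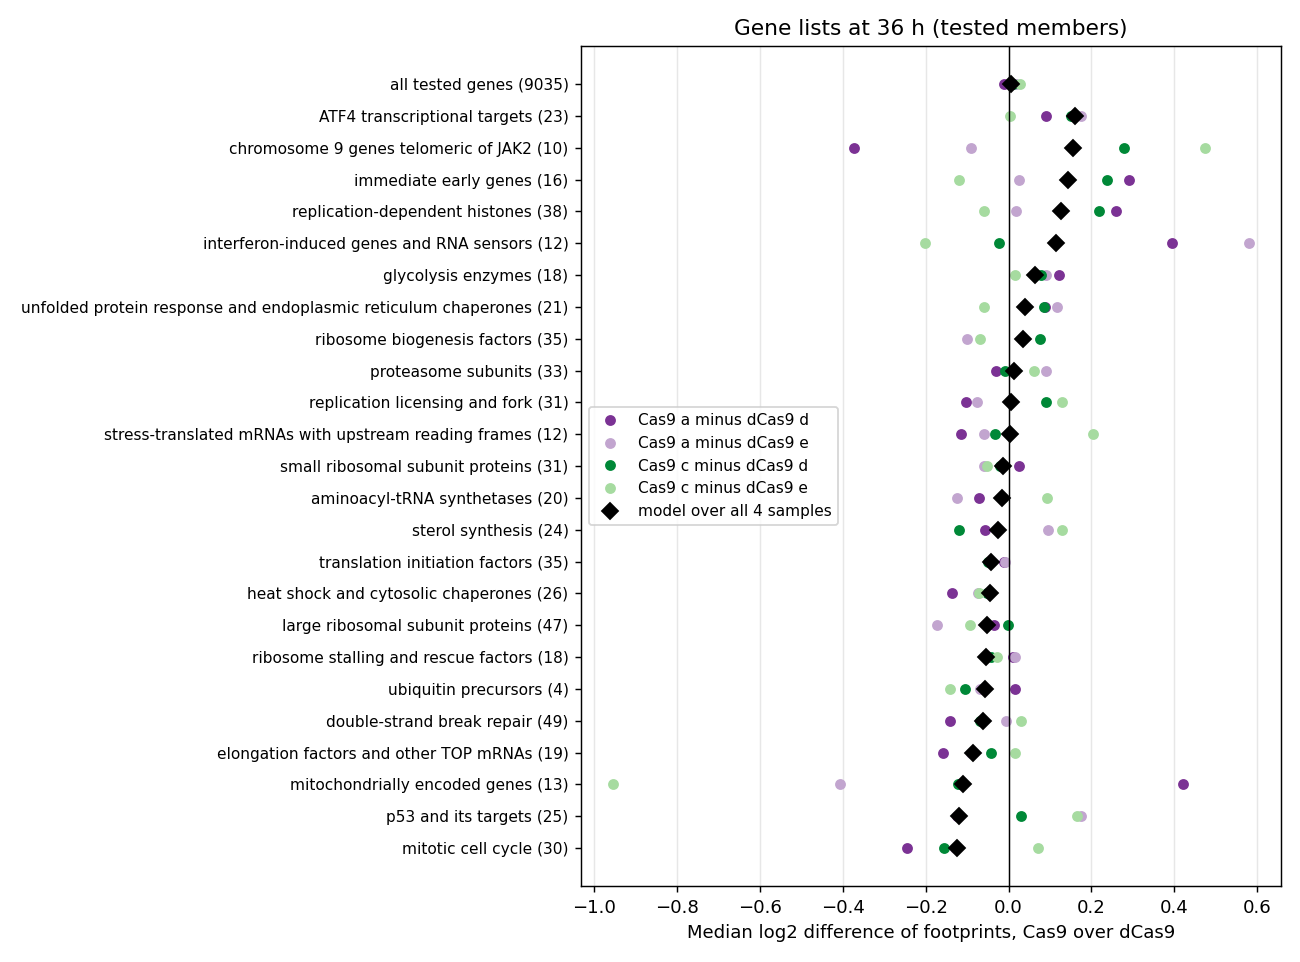
The median log2 difference of footprints, Cas9 over dCas9, is plotted for the tested members of each gene list (their number in brackets) and for all tested genes. Diamonds are the model over all samples and circles the 4 single pairs: all diamonds lie between -0.12 and 0.16, while the pairs of single lists spread more widely, for mitochondrially encoded genes from -0.95 to 0.42.

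The genes between the end of the short arm of chromosome 9 and JAK2 lie beyond the cut site from the centromere. Of 19 such genes in the counts, 10 were tested, and they had a median of 0.16 with single pairs from -0.37 to 0.47. The 3 with the most footprints were SMARCA2 (chr9:1980290-2193624, plus strand), a chromatin remodelling ATPase, WASHC1 (chr9:14475-73865, minus strand) and PUM3 (chr9:2720469-2844095, minus strand). SMARCA2 had 71.9, 66.9, 79.8 and 65.98 CPM, a log2 fold change of -0.17 ± 0.30, and PUM3 gave -0.04 ± 0.36. WASHC1 had 38.6, 43.5, 32.1 and 49.5 CPM and gave 0.27 ± 0.39. The 2 members without overlap, KANK1 (1.12 ± 0.48) and CDC37L1 (1.43 ± 0.68), were both higher with Cas9, and only 3 of the 10 genes had an interval within 2-fold.

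The same comparison in mRNA at 36 h, with 3 Cas9 and 2 dCas9 samples, called 2 of 12823 genes (0.0156%), both lower with Cas9. These were NTS, the neuropeptide neurotensin, with 0, 3 and 0 mRNA counts against 56 and 100, and ZSCAN30, with 159, 78 and 89 against 170 and 357. In footprints, NTS had 2 counts in Cas9 a and none elsewhere, and ZSCAN30 had 0, 4, 7 and 0, so neither could be followed to the ribosome. Without dCas9 d, the mRNA comparison called 394 genes. The difference between the footprint and the mRNA change, fitted over both assays, was called for 0 of 9016 genes (0%), and 422 had an unadjusted p under 0.05. DESeq2 called 1, B3GALNT2, at 1.77 with an adjusted p of 0.00262.

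At 72 h, footprints of Cas9 and dCas9 differed for 6 of 10952 genes (0.0548%), in 2 samples each. At that time the guide was transcribed in vitro rather than synthesised, and the reads were aligned with another program. Of the 6, 4 were mitochondrially encoded and higher with Cas9: MT-CO2, MT-ND5, MT-ATP6 and MT-ND4L, at 0.33 to 0.49. The same genes had log2 fold changes of 0.06, -0.05, -0.07 and -0.68 at 36 h. There the dCas9 samples d and e lay apart for MT-CO2 (142.1 and 275.9 CPM), MT-ND5 (114.3 and 236.9 CPM) and MT-ATP6 (51 and 106.5 CPM). ZNF460, at 0.47 at 72 h, gave 0.17 ± 0.27 at 36 h. SAMD10, the 1 gene lower at 72 h, had 838 counts in dCas9 e and 5482 in dCas9 f at that time. With Cas9 e and f it had 178 and 309. DESeq2 called only MT-CO2, MT-ND5 and MT-ATP6 at 72 h. At 36 h SAMD10 had 1, 3, 11 and 0 footprint counts. The difference between the changes at 36 h and at 72 h was called for 0 of 8987 genes (0%), and by DESeq2 for 0, while 496 had an unadjusted p under 0.05.

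The number of genes called at 36 h differed between models. DESeq2 with footprints and mRNA of 36 h in 1 fit was an alternative added after the values were seen. It called 46 of 9016 genes, 16 higher and 30 lower with Cas9. In that fit each gene has 1 dispersion for both assays, although mRNA varied less than footprints. edgeR on the same joint counts called 0, and DESeq2 on footprints alone 0. All 46 genes were without overlap between the nucleases, where over all tested genes 15.9% were higher and 14.6% lower without overlap. All 46 also had an unadjusted p under 0.05 in edgeR's footprint fit. The lack of overlap and that fit come from the same footprint samples that chose the 46, so neither is separate support. Among them were B3GALNT2 at 1.76, HSPA12A at 2.102, EML1 at -1.62, RRM1 at -0.52, SNRPF at -0.82, SHISA5 at 1.52, CLN6 at 0.91 and ZNF500 at -1.89. Only RRM1 and PPM1D belonged to a list here, and the median level of the 46 was 34.9 CPM, against 37.5 CPM over all tested genes.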

How the data were processed

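HEK293 ribosome footprints at 36 h were compared between Cas9 (n = 2) and dCas9 (n = 2). The authors removed adapters, aligned reads with HISAT2 2.1.0 (submitters' processing notes) to GRCh38 with GENCODE 22, and counted the reads of each transcript with fp-count. The deposited values are whole-number counts of reads per transcript, not normalized, with coding length in codons. A read can be counted on several transcripts.

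Of 26679 transcripts, 94.97% matched GENCODE 44 on hg38. Per gene, the transcript with the highest summed footprint count was kept; unmatched transcripts held 4.08% to 4.23% of footprint counts. Genes needed a mean of at least 20 counts. CPM used TMM. Footprints were fitted alone in edgeR 4.0.16 (glmQLFit, legacy off; R 4.3.3) and adjusted by Benjamini-Hochberg, with calls at a false discovery rate of 0.1. The fit weights samples by depth, so a log2 fold change can differ from that of mean CPM. SE came from the F statistic. Single pairs used a prior count of 2. An exact two-sided permutation test of 2 against 2 samples cannot go below 0.333, so none was run. The fits of mRNA (n = 3 and 2), of 72 h footprints and of both interactions used the same test.

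Alternatives included DESeq2 1.42.0, other scaling, filters and transcripts, thinning (seeded), joint fits, the edgeR likelihood ratio test, every listed transcript, GC centring, and leaving out each sample. The test was tried on simulated counts with a smaller spread than these footprints, so the trial does not measure what was detectable here. Lists and members were chosen with earlier results of these data known. Genes were named as those the study follows, the 6 per direction with the smallest p and the same sign in all 4 pairs, and the 2 highest tested members of each list (3 on chromosome 9); a few of these are not reported here. The letter in the titles at 36 h was taken to link the footprints and mRNA of a lysate, which the titles do not state. The deviations of samples linked in this way correlated at 0.06 (Cas9) and 0.01 (dCas9). P-values set the difference between nucleases against the spread between these samples, which the fit estimates with information shared across genes. Intervals assume the fitted spread. No sequence is printed.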

Additional observations from a re-analysis of the deposited data

How the results depend on the processing

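The count of 0 genes in footprints at 36 h was also obtained with DESeq2, its size factors in edgeR, library totals, no filter, filterByExpr, 10 counts in each sample, thinning, the other choice of transcript, the joint edgeR fit, legacy quasi-likelihood, the likelihood ratio test, GC centring and DESeq2 on every listed transcript. Unadjusted p under 0.05 was reached by 107 to 508 genes in these fits. DESeq2 with both assays in 1 fit called 46. Leaving out 1 sample gave 0 to 5 calls, 1 without dCas9 replicate d and 5 without dCas9 replicate e; the lone sample is then assumed to vary like the other group. The median absolute log2 fold change of 0.23 became 0.35 without a filter and 0.26 to 0.40 without 1 sample, the highest without dCas9 d (0.40) and Cas9 c (0.39). Of 69 named genes, 35 changed sign in some setting, and 25 moved by over 1 SE; of 24 list medians, 17 changed sign.

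For mRNA at 36 h, DESeq2 called 1 gene and leaving out 1 sample gave 1 to 394, the latter without dCas9 d. For footprints at 72 h, DESeq2 called 3 genes, and leaving out 1 sample gave 1 (without dCas9 f) to 13 (without Cas9 f), with 3 without dCas9 e and 12 without Cas9 e. For the footprint minus mRNA difference, DESeq2 called 1 gene. The difference between 36 and 72 h gave 0 to 10 calls without 1 sample, 10 without dCas9 d and 1 without dCas9 e. The cause of these changes was not tested.

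No paired analysis was possible for Cas9 against dCas9 footprints at 36 h because their letters differ (a and c, d and e). With the lysate letter as a replicate block, the footprint minus mRNA difference called 0 genes, as without it. With the letter as a replicate block at 72 h, 7 genes were called; deviations of same-lettered samples correlated at 0.01.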

Other observations

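A few genes had no count in 1 sample although the other 3 predicted at least 20. Of 5276 genes with such a prediction in dCas9 e, 4 had 0 counts, among them KIF21A, TBX18 and MTX2, as had 1 of 6418 in Cas9 a (HIVEP1) and none in Cas9 c or dCas9 d. KIF21A, a kinesin motor, had 36, 104, 229 and 0 counts, where 29.4 were predicted for dCas9 e. These genes were chosen after their values were seen. A count under 0.25 times the prediction was found for 69 genes in dCas9 e, 57 in Cas9 a, 27 in Cas9 c and 6 in dCas9 d.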
